A study of Mus musculus with 3 samples.

Results

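The cells described here are proximal tubular epithelial cells (PTECs) of segments S1 and S2, the early and middle stretches of the tubule that leaves the glomerulus. They came from kidneys of mice given folic acid (FA), which injures the tubules, and were profiled by droplet single-cell RNA sequencing 14 days later. The cells were selected on measured values: a barcode needed 1672 or more unique molecular identifiers (UMIs, 1 per captured transcript), 200 or more genes and at most 50% of UMIs from the mitochondrial genome. At least 3 of the 5 genes Slc5a12, Slc5a2, Slc6a19, Spp2 and Gatm had to be detected, the summed UMIs of Slc5a12, Slc5a2 and Slc6a19 had to exceed those of the S3 genes Slc7a13, Slc5a8 and Acsm3, and Ptprc, Tyrobp, Vcam1, Havcr1 and Slc12a1 together could hold at most 1 UMI. This left 7094 S1/S2 cells of 48404 cells that passed the limits on UMIs, genes and mitochondrial share, out of 73281 deposited barcodes. The study asked what loss of Aoah, the gene of acyloxyacyl hydrolase, an enzyme that removes fatty acids from bacterial lipopolysaccharide, does in the injured kidney. Kidneys of 2 Aoah-/- mice and 1 wild-type (WT) mouse were digested with collagenase after perfusion, and 1 library was made per mouse. All 3 mice received FA and none of the libraries came from an untreated kidney. The labels give an age of 6 to 8 weeks for each mouse. The study describes its Aoah-/- mice as global knockouts, and its methods give a backcross to C57BL/6J mice. The WT mice are littermates of the same sex. Since there is 1 WT library and cells of 1 mouse are not replicates, no test between genotypes was made, and the WT value has no replicate error.

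S1 and S2 cells take back most of the filtered glucose, amino acids, phosphate, bicarbonate and small proteins. Sodium-driven carriers sit in the brush border (the glucose carrier SGLT2, encoded by Slc5a2, the neutral amino acid carrier encoded by Slc6a19 and the phosphate carrier encoded by Slc34a1), and the receptors megalin and cubilin take up filtered proteins into lysosomes. The cells burn fatty acids rather than glucose, make glucose in fasting, secrete organic anions and drugs from blood to urine, and set the level of active vitamin D. They are also among the tubule cells most exposed to filtered toxins and bacterial products, and surviving cells refill the epithelium after injury.

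Levels are given as CPM, the UMIs of a gene summed over the S1/S2 cells of a library and divided by all UMIs of those cells, times 1000000. Where 3 values follow each other they belong to Aoah-/- mouse 2, Aoah-/- mouse 3 and WT mouse 3, in that order, and the numbers of the mice are those of the labels. The libraries held 2223, 2633 and 2238 S1/S2 cells with 25351181, 23880972 and 24037974 UMIs, so that 20 CPM stood for 507, 478 and 481 UMIs. Aoah-/- mouse 3 stood apart in depth. Its S1/S2 cells had a median of 5312 UMIs and 1733 genes, against 8780 UMIs and 2688 genes in Aoah-/- mouse 2 and 8398.5 UMIs and 2560 genes in the WT mouse. Its deposited barcodes also started at 1672 UMIs, whereas those of the other libraries started at 500, which is why the floor was set at 1672 for all. The median mitochondrial share of S1/S2 cells was 25.2%, 25% and 20.3%, higher in both Aoah-/- mice than in the WT mouse. Pairs of libraries shared 172, 171 and 176 barcodes, of which 1, 1 and 3 were S1/S2 cells in both libraries of a pair.

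The values used for the choice are a description only. All 5 marker genes were detected in 59.2%, 46.1% and 59.2% of S1/S2 cells, and the lower share belonged to the shallow library. Gatm, which makes the creatine precursor guanidinoacetate, had 2236, 2226 and 1993 CPM, and Spp2 had 915, 903 and 760.3 CPM. Slc5a2 had 551, 619 and 606 CPM, the lactate carrier gene Slc5a12 427, 437 and 423 CPM and Slc6a19 432, 407 and 369 CPM. No S3 UMI was present in 74.7%, 76.3% and 70.2% of the cells, and none of the 5 exclusion genes had a UMI in 74.3%, 69.7% and 87.1%. By this limit Havcr1 and Vcam1, markers of injured PTECs, were held to 0.396 ± 0.0896 and 2.38 ± 1.13 CPM (mean ± SD of the 3 libraries). Cells just inside and just outside each limit of the rule are given next. In the 389, 710 and 379 cells with exactly 3 markers Slc34a1 stood at 2105, 2505 and 2835 CPM, and in the 322, 527 and 227 cells with 2 markers, which were left out, at 557, 1039 and 1323 CPM. Umod, a product of the thick ascending limb (TAL), went the other way, with 165, 363 and 61.6 CPM inside and 505, 794 and 366 CPM outside. Cells with an S1/S2 sum 1 UMI above the S3 sum (205, 382 and 182 cells) held 18567, 16404 and 27995 CPM of Kap, an androgen-dependent gene that is most abundant in S3, and cells with equal sums (58, 133 and 60 cells) held 39266, 30959 and 37955 CPM. Umod was at 195, 419 and 27.1 CPM in the former and 28.4, 521 and 74.8 CPM in the latter, in no common direction. Slc34a1 was at 3969, 4063 and 3848 CPM with 1 exclusion UMI and 3498, 3734 and 3898 CPM with 2, where Umod was at 60.6, 127 and 56.9 and 127, 223 and 40.3 CPM. Slc34a1 was at 3649, 3718 and 4064 CPM with a mitochondrial share of 45 to 50% and 3082, 3211 and 3323 CPM at 50 to 55%.

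S1/S2 cells made up 14.4% of the cells of Aoah-/- mouse 2 that passed the limits (95% exact Clopper-Pearson interval 13.8 to 15.0%), 13.4% of Aoah-/- mouse 3 (12.9 to 13.9%) and 16.9% of the WT mouse (16.2 to 17.5%). The mean of the Aoah-/- mice lay 2.98 percentage points below the WT mouse, with an SD of 0.725 points between the Aoah-/- mice. These intervals, like all others given here, cover counting error only. Over all deposited barcodes the shares were 8.71%, 10.7% and 9.70%, and the WT mouse then lay between the Aoah-/- mice. The libraries held 6070, 0 and 5823 barcodes under 1672 UMIs, so this denominator is unlike the others in Aoah-/- mouse 3. The difference in the share of S1/S2 proximal cells was −0.771 points with the UMI floors as deposited and −0.326 points with the rule applied to cells thinned to 1672 UMIs. For S3 cells, taken as cells with the same limits, 2 or more of the 3 S3 genes detected and an S3 sum at or above the S1/S2 sum, the shares were 11.5%, 10.8% and 24.1%. There were thus 0.800 and 0.805 S3 cells per S1/S2 cell in the Aoah-/- mice and 1.43 in the WT mouse. A share also depends on how many other cells a library holds, and that part was not tested.

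Slc34a1, Lrp2, Cubn and Hnf4a, which the rule did not use, mark the proximal tubule as a whole and do not tell its segments apart. Slc34a1 had 4113 ± 176 CPM (mean ± SD of the 3 libraries), the megalin gene Lrp2 1437 ± 72.1 CPM, the cubilin gene Cubn 199 ± 12.5 CPM and Hnf4a, a transcription factor of proximal identity, 230.3 ± 34.3 CPM. In S3 cells, chosen by the S3 genes, they averaged 3352, 1253, 158 and 207 CPM. The 12 listed late-segment genes outside the rule summed to 10294, 12507 and 16145 CPM in S1/S2 and 66983, 84619.8 and 67699 CPM in S3 cells, most of it Kap. Malat1, a nuclear non-coding RNA, led the transcripts of the nuclear genome on average with 34392, 39090 and 46503 CPM, followed by the gene model Gm42418 with 41720, 35539 and 29460 CPM. Next came Gpx3, the secreted glutathione peroxidase of plasma, with 18542, 18240 and 14339 CPM, and Kap with 8724, 10783 and 14167 CPM. Among the remaining 16 of the 20 most abundant were the ferritin chains Fth1 and Ftl1, the sodium pump subunit Fxyd2, Slc34a1 (3921, 4265 and 4154 CPM), Tpt1, Gpx1, Ndrg1, Miox, Acsm2, Timp3, Dbi, Cox4i1, Chchd2, Eef1a1 and Tmem27, a partner of amino acid carriers. UMIs were counted at the 3′ end of transcripts, so these levels were not divided by gene length. In 18 of these 20 genes the 3 libraries lay within a factor of 1.5 of each other, the exceptions being Kap and Miox.

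S3 cells are the neighbours of S1/S2 cells along the tubule. Of 2672 genes with 50 CPM or more in either cell class, 75 were 2-fold or more higher in S1/S2 than in S3 cells in all 3 libraries and 96 were 2-fold or more lower. The cells were sorted into these classes by expression, so these differences describe the classes and were not tested. Slc34a3 (chromosome 2, 25228898 to 25234364, minus strand, GRCm38), the second renal phosphate carrier, stood at the top with 65.0, 75.8 and 71.7 CPM in S1/S2 and 1.69, 2.63 and 1.84 CPM in S3 cells, a log2 ratio of 4.57 ± 0.15 (SD over the 3 libraries). D630023F18Rik had a log2 ratio of 4.42 ± 0.41. Acss1, which makes acetyl-CoA from acetate in mitochondria, averaged 169 CPM in S1/S2 and 11.0 CPM in S3 cells, and the sialic acid lyase gene Npl averaged 91.3 and 7.15 CPM. Apob, which carries lipoproteins, had 131 and 11.6 CPM, the fatty acid binding protein gene Fabp3 109 and 11.8 CPM, and the cytochrome P450 gene Cyp2d26 219 and 27.2 CPM. Prodh2, which breaks down hydroxyproline, had 90.2 and 8.30 CPM, a log2 ratio of 3.32 ± 0.25. Epb41l3, Cdkl1, Itpr2 and the transcription factor gene Tbx2 completed the 12 with log2 ratios of 3.65, 3.40, 3.30 and 3.29. Against cells with 3 or more of the 5 markers and 2 or more UMIs of Vcam1 or Havcr1, all 12 ratios were smaller. They ran from 0.17 for Tbx2 and 0.30 for Epb41l3 to 2.47 for Slc34a3.

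The glucose carriers split as the segments are known to. Slc2a2, the basolateral exit carrier of early segments, averaged 232 CPM in S1/S2 and 91.4 CPM in S3 cells (log2 ratio 1.34 ± 0.12), whereas Slc5a1, the high-affinity glucose carrier SGLT1 of S3, averaged 5.41 and 43.8 CPM (−2.81 ± 0.12). Gpx3 was higher in S1/S2 cells (1.71 ± 0.13) and the organic anion carrier gene Slc22a6 lower (−1.25 ± 0.062), while its relative Slc22a8 was somewhat higher (0.54 ± 0.024). Both vitamin D hydroxylase genes were higher in S1/S2 cells, the activating Cyp27b1 at 7.71 against 0.991 CPM and the inactivating Cyp24a1 at 106 against 20.8 CPM. At the other end stood Slco1a1, an organic anion transporter, with 4.65, 11.3 and 6.32 CPM in S1/S2 and 337, 518 and 359.6 CPM in S3 cells (log2 ratio −5.64 ± 0.25). Cyp2a4 (−4.19), the ketone body enzyme gene Bdh1 (−3.89), Cyp2d9 (−3.86), Akr1c14 (−3.57), the fatty acid receptor gene Cd36 (−3.47), Napsa (−3.18), Tmigd1 (−3.13), Irx3 (−3.12), Azgp1 (−3.12), angiotensin-converting enzyme Ace (−3.04) and Slc6a18 (−3.01) were lower by the log2 ratios given. Cyp2a4, Cyp2d9 and Cyp2d26 belong to families of near-identical copies, and reads shared between copies make their values uncertain. Kap stood at 8724, 10783 and 14167 CPM in S1/S2 and 61954, 78550 and 62195 CPM in S3 cells.

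**Figure D1:**
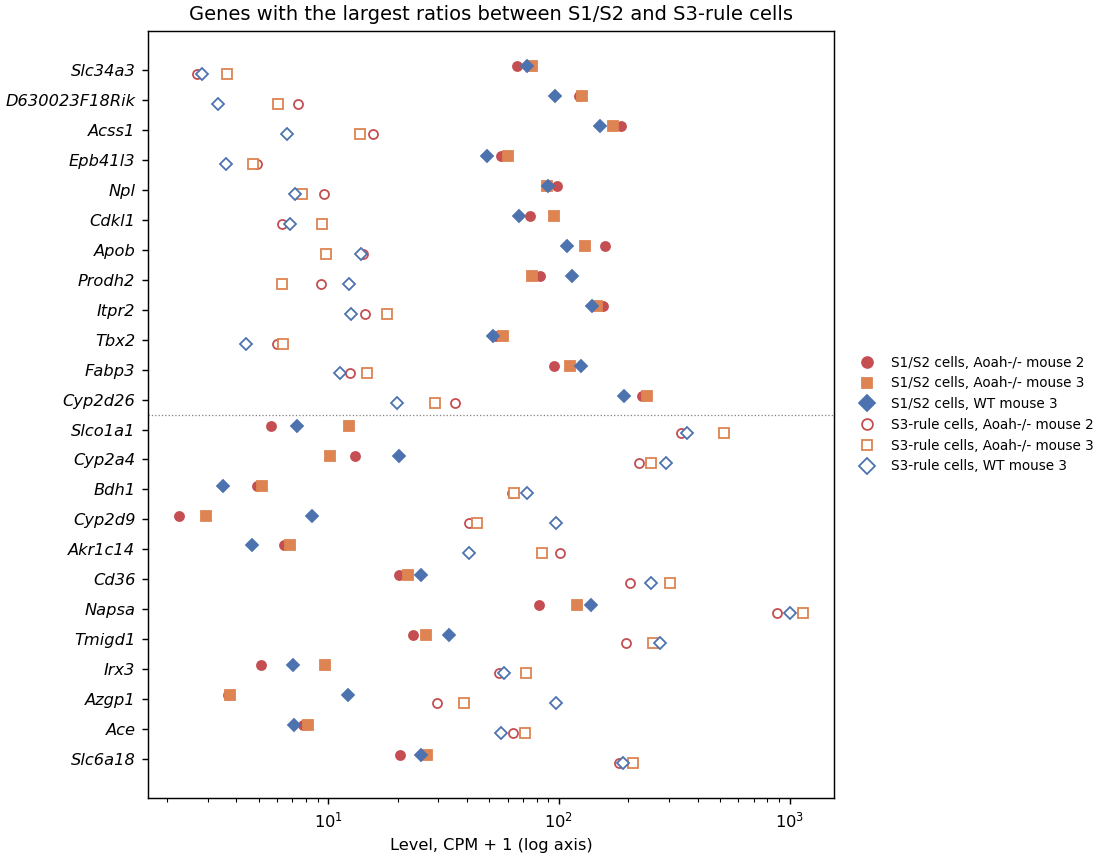
CPM plus 1 on a log axis for 24 genes in S1/S2 cells (filled) and S3 cells (open, named S3-rule in the plot), 1 point per library; the upper 12 genes lie higher in S1/S2 and the lower 12 higher in S3 cells in each of the 3 libraries. Slc34a3 shows the widest gap upward, with a mean of 70.8 against 2.05 CPM, and Slco1a1 the widest downward, with 7.43 against 405 CPM.

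The promoter of Prodh2 is shown because it was the only one among the 12 S1/S2-high genes and the 5 markers that had an entry with more than 1 copy of the letters GTTAAT or its reverse complement ATTAAC, which make up one arm of the site bound by HNF1, a factor of proximal tubule identity. The 300 bases from RefSeq (GRCm38.p6, chr7:30493408-30493707, plus strand) run from 250 before to 50 after the start, and capitals mark the matches.
Prodh2: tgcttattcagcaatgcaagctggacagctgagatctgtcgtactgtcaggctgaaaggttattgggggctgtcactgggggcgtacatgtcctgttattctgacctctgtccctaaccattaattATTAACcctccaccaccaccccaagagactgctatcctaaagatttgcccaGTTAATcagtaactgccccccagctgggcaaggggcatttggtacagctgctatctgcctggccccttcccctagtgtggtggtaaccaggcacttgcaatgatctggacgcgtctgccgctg
Matches lay 124 and 73 bases before the start. Either strand was searched, and 7.10% of the 32851 RefSeq promoters of this length held at least 1 match and 0.548% held 2 or more. Cyp2d26 held 1 match, and Slc34a3, D630023F18Rik, Acss1, Epb41l3, Npl, Cdkl1, Apob, Itpr2, Fabp3, Slc6a19, Spp2 and Gatm held none. Slc5a2, Slc5a12 and Tbx2 had no entry. The motif was chosen after the values were seen, and a match is a string of letters and not a binding site.

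The S1/S2 cells were not uniform within a library. The share of cells with at most 20% mitochondrial UMIs was 38.1, 36.5 and 49.4% in the 3 libraries. In those cells Malat1 stood at 64035, 65566 and 61853 CPM, against 21356, 26191 and 32486 CPM in cells with more. Fos, an immediate early gene, stood at 974, 947 and 550.0 against 199, 168 and 163 CPM. Gpx3 went the other way, with 13108, 14094 and 11650.5 against 20932, 20259.5 and 16794 CPM. In every library, then, cells with a small mitochondrial share held more Malat1 and Fos and less Gpx3. A second gradient followed the S3 genes. Cells with no S3 UMI had 77.7, 91.2 and 94.7 CPM of Slc34a3 and 4141, 5020.0 and 6716 CPM of Kap, and cells with 1 or more S3 UMIs had 37.0, 43.8 and 30.7 and 18775, 22736 and 27454 CPM. Slc22a6 stood at 290.1, 290.1 and 260.4 CPM without and 661, 648 and 612 CPM with S3 UMIs, and so followed Kap. S3 UMIs are part of the rule, so this gradient is also a description.

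The genotypes were compared over 5383 genes with 20 CPM or more in the WT mouse or in the Aoah-/- mean. For each gene the Aoah-/- mean was divided by the WT value after 1 CPM had been added to both, and the log2 of this ratio is given, followed by the SD between the 2 Aoah-/- mice (n = 2). A gene is called higher or lower below only where this ratio was at least 2-fold, both Aoah-/- mice lay on the same side of the WT mouse, and the nearer of them was farther from the WT mouse than the Aoah-/- mice were from each other. Both distances were taken between log2 values of CPM plus 1. With 1 WT library this is a rule of size and carries no p-value. The median log2 ratio over all genes compared was −0.084. It was −0.011 with CPM taken without the mitochondrial genome and 0.016 with cells of at most 20% mitochondrial UMIs, over the genes compared in those settings. By this rule 44 genes were higher (0.817% of those compared) and 19 lower (0.353%) in Aoah-/- S1/S2 cells, 63 in all (1.17%). Of the 44 higher genes 27 reached 20 CPM in the Aoah-/- mean alone, and of the 19 lower genes 5 reached it in the WT mouse alone, so the minimum itself favoured a difference in them. Among all genes compared 174 and 321 did so. With cells of at most 20% mitochondrial UMIs only, 105 were higher and 13 lower. Without Aoah-/- mouse 2 73 were higher, but the condition on the distance between the Aoah-/- mice then could not apply. Most of the genes that were higher are more abundant in other kidney cells. Of the 44, S1/S2 cells exceeded the average of all remaining cells in every library for 4 only (Cyp24a1, Igfbp1, Ces1g and Ifi27), and fell short of it for 36. Called genes outside the 12 largest differences in each direction and outside the gene lists were named after their values were seen. For the 19 lower genes these numbers were 8 and 9, and for all 5383 genes 2027 and 2360. Free RNA from lysed cells gives UMIs in droplets of every cell type. Values in S3 cells, in TAL cells (Slc12a1 with 2 or more UMIs) and in T lymphocytes (2 or more UMIs of Cd3d, Cd3e and Cd3g), the latter types each with at most 1 of the 5 markers, are therefore given beside the results.

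**Figure D2:**
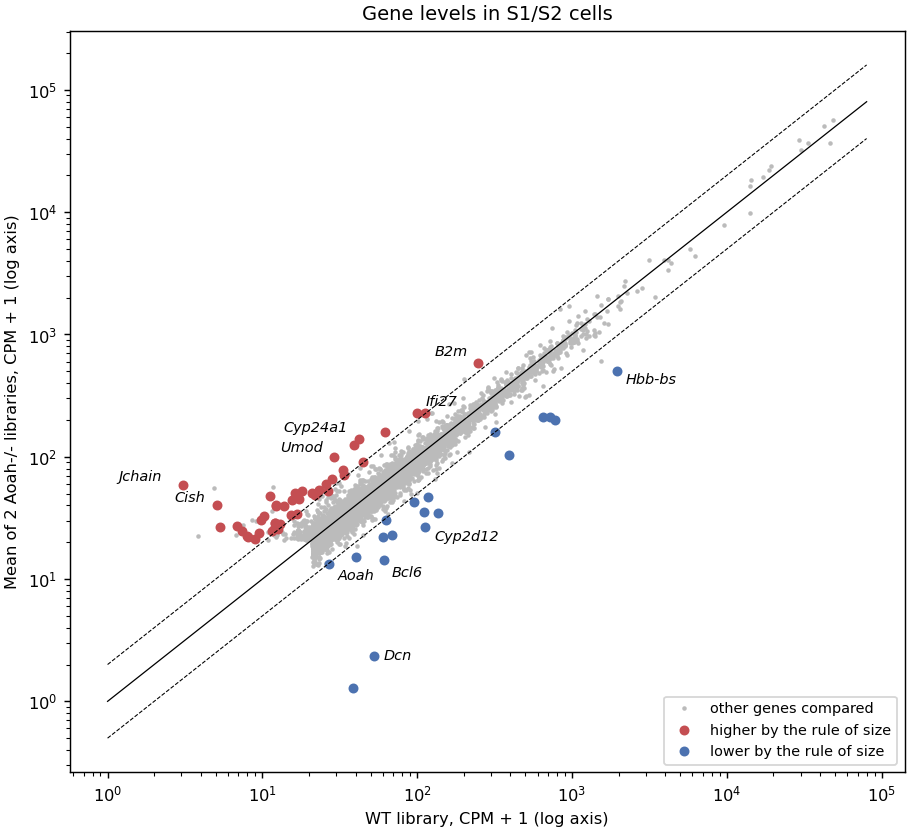
CPM plus 1 in S1/S2 cells of the WT mouse against the mean of the 2 Aoah-/- mice, both on log axes, 1 point per gene for 5383 genes; coloured points are the 44 genes called higher and the 19 called lower. Most genes lie along the diagonal, and Dcn and Igfbp6 lie farthest below it.

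**Figure D3:**
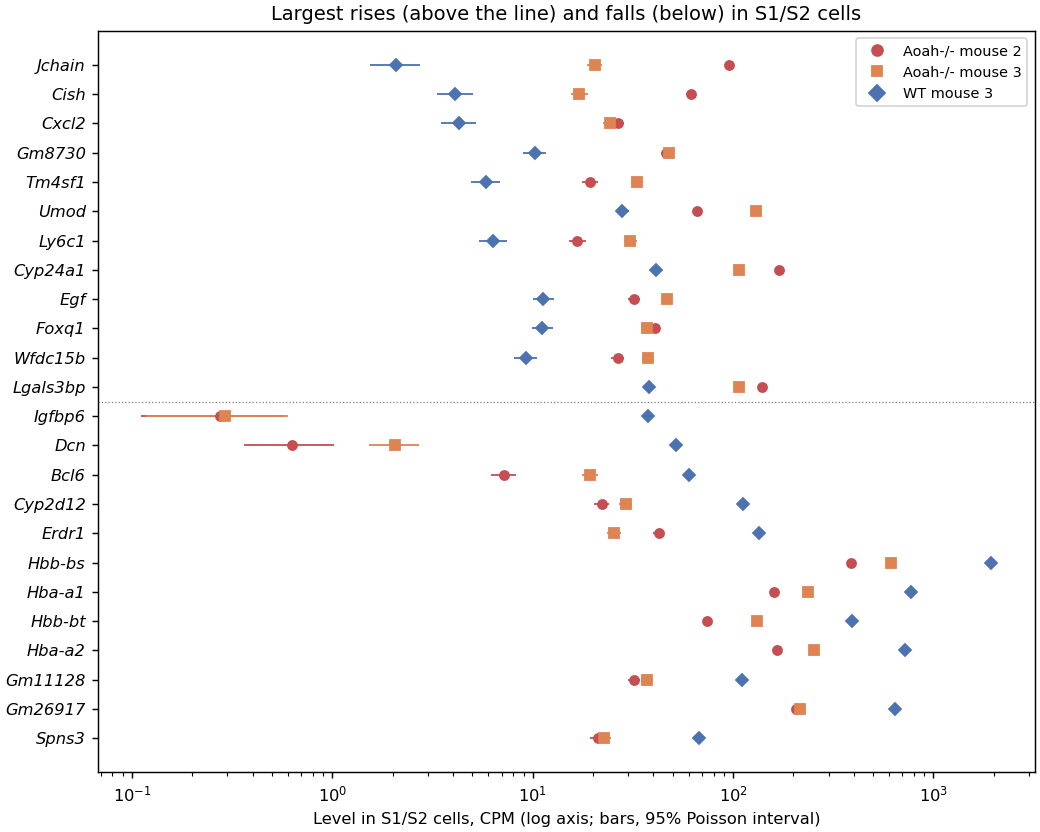
CPM on a log axis for the 12 largest rises and the 12 largest falls in S1/S2 cells, 1 point per library with its 95% exact Poisson interval, which covers counting error only. The Aoah-/- points of Cish, Jchain and Bcl6 lie far apart from each other, whereas those of Gm8730, Gm26917 and Spns3 nearly coincide.

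The targeted gene was low in S1/S2 cells. Aoah (chromosome 13, 20794113 to 21036617, plus strand, GRCm38) stood at 13.8 CPM in Aoah-/- mouse 2 (95% exact Poisson interval 12.4 to 15.3), 10.8 CPM in Aoah-/- mouse 3 (9.53 to 12.2) and 25.9 CPM in the WT mouse (23.9 to 28.0). It was lower in the Aoah-/- mice, by a log2 ratio of −1.02 ± 0.23, and transcripts remained in both. With cells of at most 20% mitochondrial UMIs the Aoah log2 ratio was −0.75 and without Aoah-/- mouse 3 −0.86, both short of the limit. In S3 cells it stood at 12.3, 12.5 and 27.5 CPM (log2 ratio −1.09), in TAL cells at 0.851, 0.967 and 3.07 CPM and in T lymphocytes at 2.07, 0.848 and 3.05 CPM. S1/S2 and S3 cells thus held more of the transcript than TAL cells and T lymphocytes in all 3 libraries, and macrophages were not compared. The deposited counts are of transcript 3′ ends and the deleted stretch of Aoah is not given in the sources used here, so the level checks the genotype only if the counted ends lie within it. After each cell was thinned to 1672 UMIs, Aoah had a UMI in 2.02%, 1.67% and 4.20% of S1/S2 cells and in 0.128%, 0.0481% and 0.187% of T lymphocytes. Without thinning the share was 13.4%, 8.77% and 21.9% of S1/S2 cells.

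Cyp24a1 (chromosome 2, 170482708 to 170497145, minus strand, GRCm38) had the widest gap between genotypes among the 4 higher genes for which S1/S2 cells exceeded the average of the remaining cells. It stood at 169 CPM in Aoah-/- mouse 2 (164 to 174), 108 CPM in Aoah-/- mouse 3 (103 to 112) and 41.3 CPM in the WT mouse (38.8 to 44.0), a 3.35-fold difference between genotypes and a log2 ratio of 1.72 ± 0.46. Both Aoah-/- mice were far above the WT mouse, though they differed from each other too. S3 cells had 25.2, 28.1 and 9.27 CPM (1.43), TAL cells 2.13, 5.80 and 1.02 CPM and T lymphocytes 5.17, 4.36 and 1.64 CPM. Thinned to 1672 UMIs, 19.7%, 10.8% and 5.18% of S1/S2 cells had a UMI, against 0.265%, 1.62% and 0.640% of TAL cells (unthinned 45.7%, 25.6% and 13.8% of S1/S2 cells). Cyp24a1 degrades active vitamin D. It was the only 1 of 6 compared genes of vitamin D, klotho and parathyroid hormone response that was called, and the median of these 6 was 0.050. Over all genes compared 0.817% were higher. The vitamin D receptor gene Vdr had 106, 91.2 and 84.5 CPM, klotho (Kl) 255, 309 and 284 CPM and the parathyroid hormone receptor gene Pth1r 266, 284 and 272 CPM, with the WT mouse between the Aoah-/- mice for Kl and Pth1r. Igfbp1, which binds insulin-like growth factors, was higher at 24.8, 17.7 and 7.03 CPM (1.47 ± 0.33), and so was the carboxylesterase gene Ces1g at 55.6, 31.9 and 16.1 CPM (1.38 ± 0.55), one of a set of closely related copies. Igfbp1 and Ces1g reached 20 CPM in the Aoah-/- mean alone.

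Among the largest differences between genotypes were Cish, which was higher, and Bcl6, which was lower. Cish reached 20 CPM in the Aoah-/- mean alone and Bcl6 in the WT mouse alone, so the minimum itself favoured a difference in both genes. STAT5, which carries growth hormone and cytokine signals, is known to act on both. Cish (chromosome 9, 107296026 to 107302784, plus strand, GRCm38), an inhibitor induced by STAT5, was higher at 61.3, 17.1 and 4.12 CPM (log2 ratio 2.97 ± 1.26), with Aoah-/- mouse 2 well above Aoah-/- mouse 3 and the latter above the WT mouse. S3 cells had 62.9, 17.2 and 3.60 CPM (3.16), nearly the same values library by library. TAL cells had 102, 61.7 and 65.8 CPM (0.31) and T lymphocytes 86.4, 105 and 100.1 CPM (−0.066), so that the WT mouse was the lowest in S1/S2 and S3 cells and in neither of the other cell types. The difference between cell types was not tested. Bcl6 (chromosome 16, 23965052 to 23988852, minus strand, GRCm38), a transcriptional repressor that STAT5 is known to lower, was lower at 7.18, 19.3 and 59.9 CPM (−2.10 ± 0.93). Here too S3 cells had a like pattern with 8.69, 35.9 and 87.9 CPM (−1.93), and the gap narrowed in TAL cells (11.5, 13.8 and 32.8 CPM, −1.31) and in T lymphocytes (16.4, 20.2 and 28.9 CPM, −0.63). The mouse with the most Cish had the least Bcl6. Socs2, which restrains growth hormone signalling and was singled out after its values were seen, stood at 45.2, 13.9 and 7.61 CPM (1.83 ± 1.15), in the same order of mice as Cish. The spread between the Aoah-/- mice was too wide for it to be called. Socs3, the inhibitor of interleukin-6 signalling, was higher at 20.9, 24.4 and 8.53 CPM (1.31 ± 0.15), and it too reached 20 CPM in the Aoah-/- mean alone.

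The promoters of Cish and Bcl6 are shown because STAT5 dimers bind the palindrome TTCNNNGAA, which is its own reverse complement. It occurs in 8.30% of the 32851 RefSeq promoters of 300 bases and more than once in 0.457%. The Cish window (GRCm38.p6, chr9:107296409-107296708, plus strand) held 2 matches, beginning 0 and 11 bases from the start. A window at an internal start of Bcl6 (GRCm38.p6, chr16:23981234-23981533, minus strand) held 3, beginning 168, 122 and 88 bases before the start, and the window at its first start (chr16:23988803-23989102, minus strand) held 1. The sequence printed for Bcl6 is that of the internal start, and Socs2 had no entry. Matches are in capitals.
Cish: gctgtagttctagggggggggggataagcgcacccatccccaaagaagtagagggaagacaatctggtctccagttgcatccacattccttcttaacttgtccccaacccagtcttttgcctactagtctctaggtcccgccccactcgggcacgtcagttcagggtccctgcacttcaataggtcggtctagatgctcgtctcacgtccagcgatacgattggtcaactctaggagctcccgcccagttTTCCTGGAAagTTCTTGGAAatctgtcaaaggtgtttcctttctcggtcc
Bcl6: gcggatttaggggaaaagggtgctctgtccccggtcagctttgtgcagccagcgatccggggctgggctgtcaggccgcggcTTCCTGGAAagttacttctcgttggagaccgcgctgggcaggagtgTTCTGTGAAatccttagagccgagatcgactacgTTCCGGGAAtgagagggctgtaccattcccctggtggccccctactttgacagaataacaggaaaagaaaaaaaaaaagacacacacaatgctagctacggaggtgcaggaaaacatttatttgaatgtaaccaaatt
The motif was chosen after the values were seen, and the matches are a description of the letters, with no measurement of binding. STAT5 activity was not measured, and whether it bears on the levels of Cish, Bcl6 and Socs2 was not tested.

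Of the genes of antigen presentation through MHC class I, B2m was called. B2m, the invariant chain of all class I molecules, was higher at 576, 587 and 245 CPM (log2 ratio 1.24 ± 0.019), with the Aoah-/- mice almost level with each other. The class I heavy chain genes H2-K1 at 207, 244 and 122 CPM (0.88) and H2-D1 at 185, 223 and 115 CPM (0.82) lay above the WT mouse in both Aoah-/- mice but under the 2-fold limit, and they share reads with near-identical class I genes. Of 5 class I and immunoproteasome genes compared 1 was higher and none lower, with a median of 0.82 against −0.084 for all genes. Of all genes compared 0.817% were higher. The summed level of the 13 listed genes was 1143, 1253 and 596 CPM in S1/S2 cells, 702, 749 and 434 CPM in S3 cells, 1067, 1417 and 934 CPM in TAL cells and 9213, 9165 and 9911 CPM in T lymphocytes. T lymphocytes, which carry far more of these transcripts, thus held no less of them in the WT mouse, and B2m itself had a log2 ratio of −0.032 there. In S3 cells B2m stood at 309, 299.7 and 138 CPM (1.14) and in TAL cells at 198, 350.4 and 144 CPM (0.92), with both Aoah-/- mice above the WT mouse in each. After thinning to 1672 UMIs B2m was detected in 56.3%, 57.9% and 29.2% of S1/S2 cells. How much of the B2m count in S1/S2 cells is free RNA from leukocytes was not tested, and the leukocyte lists are given below.

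Of 28 interferon-induced genes listed 6 were compared, of which 2 were higher and none lower, where 0.817% of all genes compared were higher. Bst2 and Irf1 were under 20 CPM in the WT mouse and were compared only through their Aoah-/- mean, so no median is given. All 28 together, with no minimum, summed to 587, 645 and 314 CPM (log2 ratio 0.97), Ifi27 being the most abundant. Ifi27, a mitochondrial protein gene, was higher at 247, 206 and 98.4 CPM (1.19 ± 0.18) in S1/S2 and 121, 93.9 and 26.9 CPM (1.95) in S3 cells. In TAL cells and T lymphocytes its log2 ratios were 0.37 and 0.19. Bst2, the membrane protein tetherin, was higher at 41.8, 44.1 and 14.5 CPM (1.5 ± 0.053), while TAL cells held 41.3, 64.8 and 44.0 CPM and T lymphocytes 132, 126 and 129 CPM in the 3 libraries. Ifitm3 (32.5, 61.8 and 23.3 CPM), Irf1 (24.2, 20.5 and 12.5 CPM) and Irgm1 (50.5, 51.0 and 42.4 CPM) did not reach the limit, though their Aoah-/- values lay above the WT value. Lgals3bp (chromosome 11, 118392751 to 118402092, minus strand, GRCm38), a secreted galectin-binding glycoprotein, was higher at 139, 107 and 38.2 CPM (1.66 ± 0.27) in S1/S2, 63.1, 51.0 and 13.7 CPM (1.99) in S3, 25, 36.2 and 17.2 CPM (0.80) in TAL cells and 66.2, 52.4 and 47.2 CPM (0.32) in T lymphocytes. In the cells with Vcam1 or Havcr1 and 3 or more of the 5 markers it stood at 189, 201 and 143 CPM (0.44). The differences between cell types were again not tested.

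Cd74 (chromosome 18), the invariant chain of MHC class II and a receptor for MIF, had 140.2, 247 and 100.2 CPM in S1/S2 cells, a log2 ratio of 0.94 ± 0.57. Both Aoah-/- mice lay above the WT mouse, but they lay farther from each other than the nearer lay from it, and the ratio was under 2-fold, so it was not called. The other 4 class II genes compared had positive ratios too, none was called, and the median of the 5 was 0.94. Outside S1/S2 cells both Aoah-/- mice also lay above the WT mouse in 3 classes, with 99.5, 177 and 70.7 CPM in S3 cells (0.96), 92.0, 226 and 52.2 CPM in TAL cells (1.59) and 809.8, 799.7 and 303 CPM in T lymphocytes (1.41). Cells with 3 or more of the 5 markers and 2 or more UMIs of Vcam1 or Havcr1 (84, 90 and 44 cells) did not have this order, with 1103, 1040.2 and 1164 CPM (−0.12), highest in the WT mouse. Thinned to 1672 UMIs, Cd74 had a UMI in 17.3%, 33.6% and 11.4% of S1/S2 cells, 10.1%, 29.1% and 7.46% of TAL cells and 17.0%, 23.9% and 12.8% of T lymphocytes, and unthinned in 45.8%, 58.6% and 32.6% of S1/S2 cells. Median depths were 8780, 5312 and 8398.5 UMIs for S1/S2 cells, 8819.5, 4127.5 and 7342 for TAL cells and 2828, 3081 and 3160 for T lymphocytes. The summed class II level was 358, 639.9 and 271 CPM in S1/S2, 255, 623 and 148 CPM in TAL cells, 2162, 2313 and 860.1 CPM in T lymphocytes and 2411, 2202 and 2254 CPM in the cells with Vcam1 or Havcr1. The class II level in S1/S2 cells thus had the order of the libraries seen in TAL cells, and the part of free RNA in it was not tested.

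**Figure D4:**
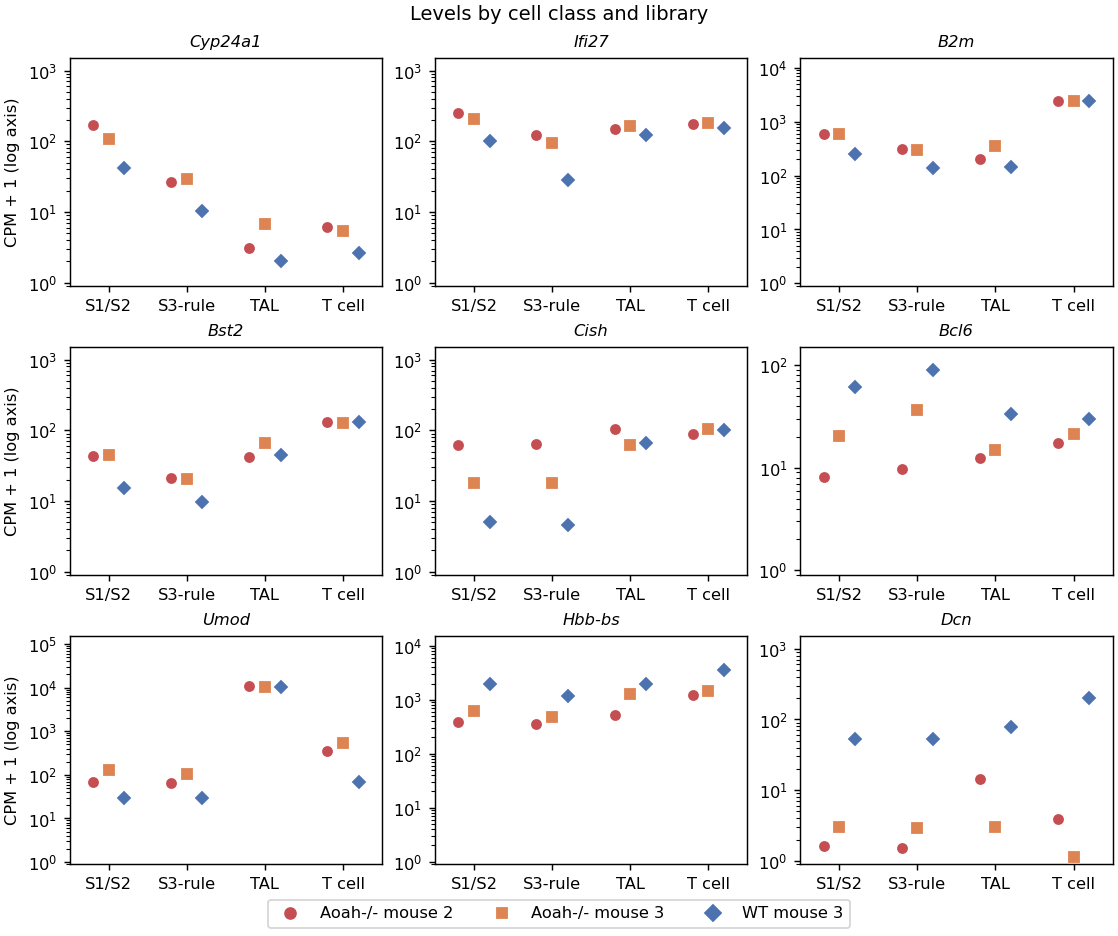
CPM plus 1 on a log axis for 9 genes in S1/S2, S3, TAL and T lymphocyte cells, 1 point per library (circles, Aoah-/- mouse 2; squares, Aoah-/- mouse 3; diamonds, WT mouse 3). B2m, Bst2, Cish and Bcl6 separate the genotypes in S1/S2 and S3 cells more than in T lymphocytes, whereas Umod, Hbb-bs and Dcn separate them in T lymphocytes as well.

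Ratios were recomputed within subsets of the S1/S2 cells. In cells split by mitochondrial share at 20%, by 5 against 3 or 4 markers and by the presence of S3 UMIs, the log2 ratio of B2m ran from 1.19 to 1.29 over the 6 sets. That of Cyp24a1 ran from 1.58 to 2.11, that of Cish from 2.72 to 3.54 and that of Bcl6 from −2.24 to −1.83. Miox, with −0.91 to −0.53, stayed under the limit in each set. Fos was less even, with 0.80 in cells of small and 0.17 in cells of large mitochondrial share, and −0.25 in cells with S3 UMIs. Malat1 stood at 0.067 in cells of small and −0.45 in cells of large mitochondrial share.

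For 8 of the 19 lower genes S1/S2 cells held more than the average of the remaining cells in every library, Aoah among them. Cyp2d12 (chromosome 15, 82555072 to 82560403, plus strand, GRCm38), a drug-metabolising cytochrome P450 with close copies nearby, was lower at 22.1, 29.2 and 112 CPM (−2.08 ± 0.27), and at 11.2, 17.5 and 56.2 CPM (−1.90) in S3 cells. Spns3, a membrane transporter of the spinster family, was lower at 21.2, 22.7 and 67.7 CPM (−1.58 ± 0.067), with S3 cells at −1.61 and TAL cells at −0.033. Pdp2, a phosphatase that switches on pyruvate dehydrogenase, was lower at 52.9, 38.1 and 117 CPM (−1.34 ± 0.33), and myosin light chain kinase Mylk at 42.3, 40.6 and 95 CPM (−1.18 ± 0.040). Both Aoah-/- mice lay well under the WT mouse for each of these. The carbonic anhydrase gene Car3 was lower at 25.7, 33.5 and 62.3 CPM (−1.05 ± 0.26). In S3 cells it stood at only 4.09, 2.14 and 2.02 CPM (0.45), too near the 1 CPM added for a direction to be read. The difference between segments was not tested. The gene models Gm26917 (205, 215 and 645 CPM, −1.61 ± 0.050) and RP23-306P12.3 (141, 174 and 318 CPM, −1.01 ± 0.22) were lower too, as was Gm11128 (32.1, 37.2 and 110.4 CPM, −1.64 ± 0.15). Erdr1 was lower at 42.5, 25.5 and 135 CPM (−1.96 ± 0.51) and by a like amount in S3 (−1.67), TAL (−1.68) and T cells (−1.62). Gm8730 was its mirror image, higher at 46.1, 47.9 and 10.2 CPM (2.09 ± 0.037) and in S3 (2.20), TAL (2.83) and T cells (2.63). Erdr1 and Gm8730 therefore set the libraries apart in every cell class examined.

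Several of the largest differences were in genes made by other cells. Umod, the main urinary protein of the TAL, was higher at 66.2, 130.1 and 28.0 CPM in S1/S2 cells (1.77 ± 0.68), where TAL cells held 10958, 10407 and 10501 CPM (0.025) and T lymphocytes 355, 527 and 68.8 CPM (2.66). Egf, the growth factor of distal tubules, was higher at 32.0, 46.9 and 11.3 CPM (1.72 ± 0.38), with 0.055 in TAL cells and 1.85 in T lymphocytes. Wfdc15b (26.6, 37.5 and 9.24 CPM, 1.69 ± 0.34), Foxq1 (40.6, 37.0 and 11.2 CPM, 1.71 ± 0.092) and the sodium chloride carrier gene Slc12a3 of the distal convoluted tubule (46.7, 51.5 and 21.6 CPM, 1.15 ± 0.099) were higher as well, but the log2 ratio of Foxq1 was 0.89 with 4 of 5 markers and 0.96 with no exclusion UMI, short of the limit. For Umod, Egf, Wfdc15b and Foxq1 the TAL cells were level or lower in the Aoah-/- mice, while T lymphocytes, which do not make them, held more of them in the Aoah-/- mice, as S1/S2 cells did. In S3 cells Foxq1 stood at 40.0, 10.0 and 13.7 CPM, with Aoah-/- mouse 3 under the WT mouse, whereas both Aoah-/- mice lay above it for Umod, Egf and Wfdc15b. The libraries also differed in TAL cells captured, with 754, 1176 and 469 that passed the limits. Where the UMIs of these genes in S1/S2 cells came from was not tested. Summed over the list, TAL markers stood at 88.2, 158 and 39.1 CPM in S1/S2 cells and distal convoluted tubule markers at 52.0, 64.1 and 23 CPM, each with 1 of 1 compared gene higher. The share called higher over all genes was 0.817%. The single principal cell and intercalated cell genes compared, Hsd11b2 and Atp6v1g3, were not called (0.48 and 0.62).

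Haemoglobin transcripts went the other way. Hbb-bs was lower at 389, 611 and 1943 CPM (−1.96 ± 0.46), Hba-a1 at 159, 238 and 772, Hba-a2 at 166, 254 and 724 and Hbb-bt at 74.1, 132 and 392 CPM. All 4 erythroid genes compared were lower, where 0.353% of all genes compared were lower. Their list summed to 789, 1238 and 3835 CPM in S1/S2 cells and 2462, 2947 and 6789 CPM in T lymphocytes. Dcn and Igfbp6, products of fibroblasts, were nearly confined to the WT library. Dcn stood at 0.631, 2.05 and 51.8 CPM (−4.50 ± 0.64) in S1/S2 cells and at 2.93, 0.121 and 202 CPM in T lymphocytes, and Igfbp6 stood at 0.276, 0.293 and 37.5 CPM (−4.91 ± 0.013) and 0.690, 2.78 and 91.9 CPM. The fibroblast list summed to 1.74, 9.51 and 66.4 CPM in S1/S2 cells. Complement C3, the 1 complement and 1 injury gene called, was lower at 19.9, 22.4 and 58.7 CPM (−1.43 ± 0.12), with a ratio of −3.58 in T lymphocytes. One cell held 25.4% of its UMIs in the WT mouse, and without the top cell of each library the ratio was −1.18. In the cells with Vcam1 or Havcr1 and 3 or more of the 5 markers C3 was at 943, 818 and 479.5 CPM (0.88), lowest in the WT mouse.

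Leukocyte transcripts were present at low levels. The macrophage list summed to 79.6, 113 and 37.1 CPM in S1/S2 cells and its most abundant gene, lysozyme Lyz2, was higher at 47.5, 50.8 and 15.3 CPM (1.62 ± 0.069). In T lymphocytes, which do not make lysozyme, Lyz2 stood at 511, 334 and 224 CPM, and over all cells outside S1/S2 the macrophage list stood at 3109.6, 2464 and 1424 CPM. The neutrophil list summed to 12.4, 50.3 and 5.24 CPM, high in Aoah-/- mouse 3 alone, and its 1 gene compared was not called. T lymphocyte genes summed to 3.39, 16.0 and 4.08 CPM, B lymphocyte genes to 13.4, 10.8 and 2.95 CPM, endothelial genes to 33.2, 72 and 9.36 CPM, podocyte genes to 7.69, 14.4 and 2.25 CPM and platelet genes to 2.80, 2.97 and 1.96 CPM, and none of these reached the 20 CPM needed for a comparison. Of 22 chemokine and cytokine genes 5 were compared and 1 was higher, where 0.817% of all genes compared were higher. This was the neutrophil attractant Cxcl2 at 26.5, 24.5 and 4.28 CPM (2.33 ± 0.081), with 119, 97.6 and 123 CPM in TAL cells and 309, 139 and 62.5 CPM in T lymphocytes. Cxcl2 and Ccl5 were compared only through their Aoah-/- mean, and the 22 genes summed to 1386, 1371 and 1407 CPM (log2 ratio −0.030), with Mif the most abundant. Jchain, the joining chain of plasma cell antibodies, had the largest ratio, with 95.5, 20.4 and 2.08 CPM (4.26 ± 1.54), but 55.3% of its 2421 UMIs in Aoah-/- mouse 2 came from 1 cell. Single cells also held 43.3% of the Foxq1 UMIs of Aoah-/- mouse 3, 35.8% of the Tm4sf1 UMIs of Aoah-/- mouse 2 and 43.9% of the Igfbp6 UMIs of the WT mouse. Tm4sf1 (19.4, 33.3 and 5.82 CPM, 2.0 ± 0.53) and Ly6c1 (16.7, 30.7 and 6.36 CPM, 1.75 ± 0.59), genes of endothelial cells, were higher. In all, 24 of the 63 genes called had over 10% of their UMIs in 1 cell of some library. Taking out that cell for each gene and library, a setting chosen after seeing the data, kept 58 of them. For Cyp24a1 the top cell held 0.745%, 1.64% and 3.12%, and for B2m 0.479%, 0.471% and 1.15%.

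Further genes called higher are given by what each is known to do, an order made after the calls and not a tested grouping. Txnip, which lowers glucose uptake (78.1, 76.3 and 32.2 CPM, 1.23 ± 0.023), the glycolytic enzyme genes Pfkp (32.6, 22.7 and 11.1 CPM, 1.24 ± 0.36) and Pkm (34.2, 31.5 and 15.8 CPM, 1.01 ± 0.081), and the mitochondrial carriers Slc25a25 (83.4, 56.2 and 32.7 CPM, 1.07 ± 0.40) and Ucp2 (22.7, 24.2 and 10.5 CPM, 1.09 ± 0.064) were higher. Their ratios in S3 cells were 0.71, 1.75, 0.83, 0.85 and 0.99, and those in T lymphocytes lay between −0.049 and 0.33. Of secreted products, angiotensinogen (Agt) stood at 22.1, 21.0 and 6.91 CPM (1.51 ± 0.047), kininogen (Kng2) at 21.5, 29.6 and 11.1 CPM (1.14 ± 0.31), kallikrein (Klk1) at 130.3, 185 and 61.3 CPM (1.35 ± 0.36), the antibody transporter Pigr at 29.4, 35.8 and 14.4 CPM (1.13 ± 0.19) and Wfdc2 at 93.9, 85.3 and 43.9 CPM (1.01 ± 0.098). Klk1, Kng2, Pigr and Wfdc2 were also at higher levels in T lymphocytes of the Aoah-/- mice, with ratios of 2.98, 1.72, 0.75 and 0.85, and their ratios in TAL cells were −0.38, −0.18, −0.087 and −0.25. Once the top cell of each library was taken out, Klk1 kept a ratio of 1.26 but was not called, since the Aoah-/- mice then lay too far from each other. Wsb1 (69.0, 59.6 and 27.1 CPM, 1.21 ± 0.15) and Mylip (64.2, 39.8 and 22.1 CPM, 1.20 ± 0.48), parts of ubiquitin ligases, and the co-receptor Nrp1 (58.6, 41.2 and 20.1 CPM, 1.27 ± 0.35) were higher in both Aoah-/- mice, with ratios in T lymphocytes of 0.018, 0.12 and −0.31. Calb1 (31.6, 45 and 12.7 CPM, 1.52 ± 0.35), a calcium-binding protein of distal tubules, was higher in TAL cells too (3.58). The chemerin gene Rarres2 was lower at 13.7, 14.4 and 39.0 CPM (−1.41 ± 0.046), but with ratios of 0.18 in S3 cells and −4.04 in T lymphocytes, and without the top cells its ratio was −0.87, short of the limit.

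No gene of the transport lists was called in S1/S2 cells. With 1.17% of all genes called, lists of this size would hold few calls or none at that share, so the absence of calls does not set them apart from other genes. The same holds for the lists of uptake, lysosomes and metabolism that follow. Of 17 glucose and amino acid carriers compared none was called and the median was 0.14. Tmem27 stood at 1845, 2048 and 1718 CPM, the cationic amino acid exit carrier gene Slc7a7 at 287, 241 and 218 CPM and Slc2a2 at 238, 236 and 220.4 CPM. None of 20 genes of salt, phosphate, bicarbonate and water transport was called (median 0.035). Slc34a1 stood at 3921, 4265 and 4154 CPM, with the WT mouse between the Aoah-/- mice, and the bicarbonate exit carrier gene Slc4a4 at 1871, 1992 and 1705 CPM. The sulphate carrier gene Slc13a1 (719.8, 722 and 525 CPM) lay above the WT mouse in both Aoah-/- mice by less than 2-fold. None of 16 organic ion carriers (0.013) was called, Slc22a8 standing at 518, 459 and 437 and Slc22a6 at 406, 407 and 387 CPM. None of the 5 rule markers (0.16), of 2 S3 rule genes (−0.33), of 20 proximal genes outside the rule (−0.060) and of 6 late-segment genes outside it (−0.23) was called. Miox, which starts inositol breakdown in proximal cells, had one of the wider gaps with 1999.7, 2043 and 3438 CPM (−0.77 ± 0.022).

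The lists of protein uptake and of lysosomes had no call either. Megalin and cubilin endocytosis had none of 16 genes called and a median of 0.019, with Lrp2 at 1367, 1434 and 1511 CPM. For lysosomal genes the median of 15 was 0.29 and none was called, yet 10 of the 15 had both Aoah-/- mice above the WT mouse by more than they differed from each other. Among these were the membrane protein gene Lamp1 (815, 829 and 619.8 CPM), the saposin precursor gene Psap (771, 657 and 540.4 CPM) and the protease genes Ctsb (442, 441 and 312 CPM) and Ctsd (365, 324 and 281 CPM). For all 5383 genes that condition was met upward by 1001 and downward by 2135.

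No gene of the energy metabolism lists was called. None of 30 fatty acid oxidation genes was called (median −0.057), although Slc27a2, which imports very long fatty acids, stood at 511, 528 and 764 CPM with both Aoah-/- mice under the WT mouse. None of 18 gluconeogenesis genes was called (−0.016), and Pck1, its controlling enzyme, stood at 2109, 1331 and 957 CPM (0.84 ± 0.47), with Aoah-/- mouse 2 well above the other mice. Nuclear genes of the respiratory chain had a median of −0.011 over 26 genes. The 13 protein genes of the mitochondrial genome had a median of 0.21 and summed to 275641, 260952 and 232839 CPM. All 13 ratios were positive and none was called. With cells of at most 20% mitochondrial UMIs the log2 ratio of their summed level went from 0.20 to −0.016 (list sum, respiratory chain, mitochondrial genome). Folate uptake and one-carbon genes (14 compared, median −0.047), with the folate receptor gene Folr1 at 396, 391 and 433 CPM, and NAD synthesis genes (8, −0.020) had no call. Nor did 23 antioxidant, glutathione and metallothionein genes (−0.0015), 8 genes of iron handling and ferroptosis (0.041) and 11 transcription factors of tubular identity (−0.15), where Maf had 979.9, 949 and 1044 CPM and Hnf4a 216, 206 and 269 CPM.

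Stress and injury genes were mixed. Of 22 immediate early and heat shock genes compared, 3 were higher and none lower, where 0.817% of all genes compared were higher. Nr4a1 was among 3 of the 22 that reached 20 CPM in the Aoah-/- mean alone, so no median is given. Zfp36, which destabilises inflammatory mRNAs, was higher at 219, 237 and 112 CPM (1.02 ± 0.084), Ier3 at 63.7, 54.7 and 24.8 CPM (1.23 ± 0.15) and Nr4a1 at 27.5, 27.1 and 12 CPM (1.12 ± 0.014). The most abundant members did not share that direction, with Jun at 1345, 1082 and 1704 CPM and Jund at 382, 369.6 and 650.1 CPM, lowest in the Aoah-/- mice. The sum of the 22 was 7629, 6992 and 8613 CPM, also lower in both Aoah-/- mice. With cells of at most 20% mitochondrial UMIs the log2 ratio of this list sum, immediate early and heat shock, turned from −0.24 to 0.085. Fos, as given above, also differed between cells with small and large mitochondrial shares, and the share of the latter differed between libraries. Whether this bears on the list sum was not tested. Injury and dedifferentiation genes had 1 of 17 compared lower and none higher, where 0.353% of all genes compared were lower. Lcn2, Sox4, Cdkn1a and Vim among the 17 were compared only through their Aoah-/- mean, and all 32 listed genes summed to 3183, 3567 and 2566 CPM (log2 ratio 0.40), with Spp1 the most abundant. Spp1 (osteopontin) just missed the limit at 1566, 1664 and 836 CPM (0.95 ± 0.062), while TAL cells held 9045, 9512 and 13465 CPM (−0.54), and Igfbp7 stood at 902, 1046 and 951 CPM. Complement genes had 1 of 6 lower, and all 14 listed summed to 299, 291 and 283 CPM (log2 ratio 0.061). None of 10 p53 target genes (−0.0042) and of 2 cell cycle genes (−0.25) was called. Of 2 lipopolysaccharide recognition genes compared, the 1 lower was Aoah itself, and Ly96 stood at 19.6, 17.3 and 22.2 CPM. Both reached 20 CPM in the WT mouse alone. The Y-linked gene Ddx3y had 61.2, 57.9 and 73.8 CPM in the 3 mice, and neither 3 sex-linked genes (−0.19) nor 6 kidney genes that differ between sexes (−0.32) held a call.

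**Figure D5:**
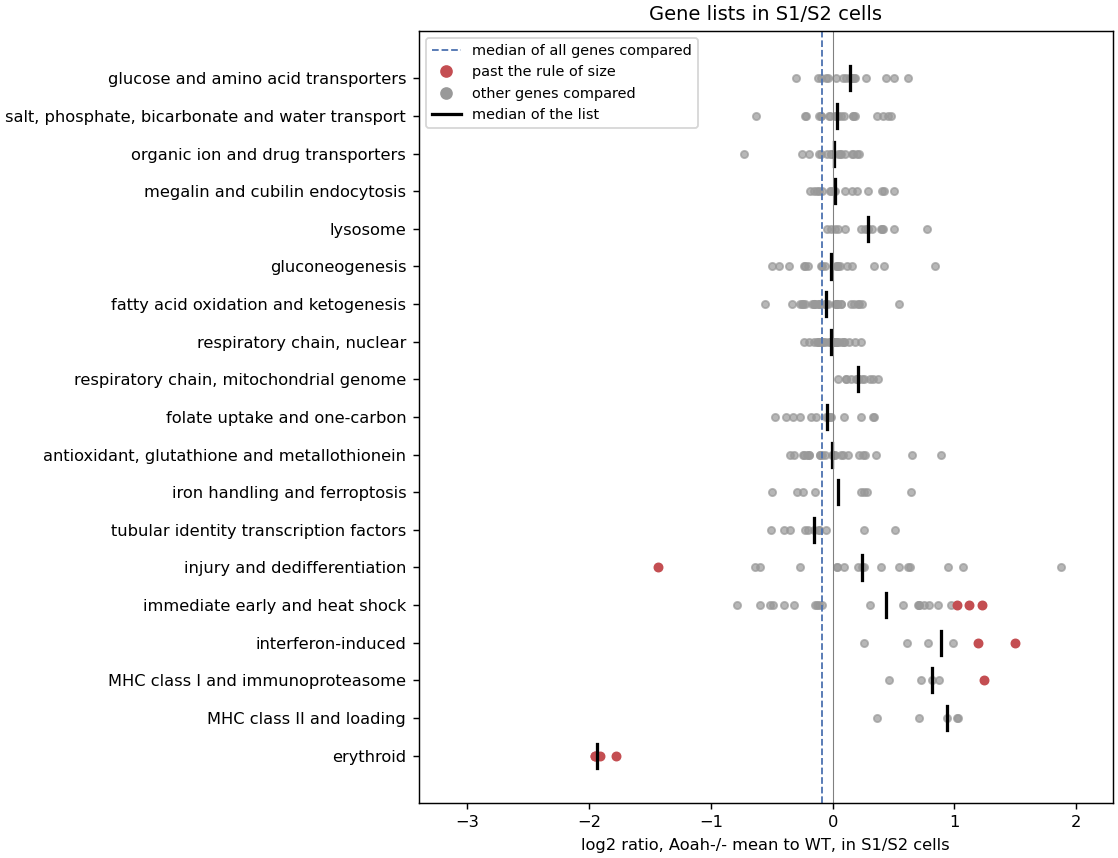
Log2 ratio of Aoah-/- to WT in S1/S2 cells for each compared gene of 19 lists, with red points past the rule of size, black bars at each list's median and a dashed line at the median of all genes compared. Lists of transport and metabolism sit around the dashed line, while the class I and class II lists have medians of 0.82 and 0.94. In the interferon list 2 of the 6 genes compared, and in the injury list 4 of the 17, reached 20 CPM in the Aoah-/- mean alone. The same held for 3 of 22 immediate early, 2 of 5 chemokine and 2 of 10 p53 target genes. Some other lists also hold genes that reached it in 1 genotype alone.

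After thinning to 1672 UMIs, shares of cells with a UMI ordered the 3 libraries as the levels did for Aoah, Cyp24a1, B2m, Bst2, Cish, Bcl6 and Cd74. Without thinning the order of the Aoah-/- mice was the opposite for B2m (88.4%, 86.1% and 71.8%) and Bst2 (26.2%, 23.1% and 9.92%). At 1672 UMIs per cell Slc34a1 had a UMI in 96.7%, 97.4% and 97.3% of S1/S2 cells, against 22.5%, 40.9% and 23.9% of TAL cells and 26.5%, 29.4% and 23.8% of T lymphocytes. Kap was detected in 77.4%, 83.4% and 83.3% of S1/S2 cells and in 79.8%, 82.4% and 82.9% of T lymphocytes, so nothing is read from its share, while its level was 8724, 10783 and 14167 CPM in S1/S2 cells and 2635, 5712 and 4119 CPM in T lymphocytes. Bcl6 was detected in 1.39%, 2.92% and 9.25% of S1/S2 cells and 2.49%, 2.89% and 3.73% of T lymphocytes, Cish in 10.4%, 3.38% and 0.492% and 12.6%, 15.4% and 14.2%, and Bst2 in 5.85%, 8.13% and 2.19% and 5.04%, 10.0% and 5.12% of TAL cells. For Umod (10.8%, 18.3% and 5.05% of S1/S2 cells and 14.2%, 19.3% and 6.06% of T lymphocytes), Hbb-bs (8.59%, 18.2% and 27.2% and 12.9%, 18.6% and 39.9%) and Cxcl2 (5.58%, 5.96% and 1.16% and 9.06%, 6.11% and 1.40%) the T lymphocytes had shares near or above those of S1/S2 cells, so their shares in S1/S2 cells are not read as expression. Where those UMIs came from was not tested.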

How the data were processed

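Raw UMI counts per gene and barcode were deposited by the authors for 3 kidney libraries made with a 3′ droplet kit. The file headers name Cell Ranger 6.1.2, the submitters' processing notes Cell Ranger 3.1.0, STAR, Seurat 4.2.0 and mm10. Of 27998 genes 18513 had a UMI in S1/S2 cells. Doublets were kept and no caller was run. Counts were summed per library over S1/S2 cells and scaled to CPM in Python 3.11.15 with NumPy 2.4.6, SciPy 1.17.1 and pandas 2.3.3, and plotted with Matplotlib 3.10.9. The scripts were tested on simulated data. Genes were named by rule: the 20 most abundant genes of the nuclear genome, the 12 largest log2 ratios in each direction against S3 cells (50 CPM or more) and between genotypes, Aoah, Cd74, and members of 45 gene lists. Some genes these rules name are not reported here. Other genes were named after their values were seen. The cells, lists and rules were chosen with earlier results of these data known. Gene positions are from GENCODE M21, matched by identifier for 27645 genes. Detection was recomputed after thinning each cell to 1672 UMIs. Alternatives changed the limits on UMIs, mitochondrial share, markers, exclusion genes and the S1/S2 to S3 sums (not that of 200 genes), the fold, the scaling, the pseudocount, the CPM minimum and the libraries included.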

Additional observations from a re-analysis of the deposited data

Results flagged for a closer look

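Jchain went in opposite directions in neighbouring segments. In S1/S2 cells it stood at 95.5, 20.4 and 2.08 CPM (log2 ratio 4.26 ± 1.54), and in S3 cells at 3.24, 11.8 and 15.5 CPM (−0.95), where both Aoah-/- mice lay under the WT mouse. The difference was not tested. Most of the S1/S2 value of Aoah-/- mouse 2 (55.3% of its UMIs) was in 1 cell. Without the top cell of each library the S1/S2 ratio was 3.37 and Jchain was still called. TAL cells held 3.69, 354 and 2.82 CPM and T lymphocytes 7.93, 78.7 and 3.76 CPM, both highest in Aoah-/- mouse 3.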

How the results depend on the processing

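No paired analysis was possible because the genotypes share only the replicate number 3. For the share of S1/S2 proximal cells the difference of −2.98 percentage points was −4.46 with at most 20% mitochondrial UMIs, −0.771 with the UMI floors as deposited, −4.67 with no exclusion UMI, −0.326 with the rule applied to thinned cells and −0.0125 over all barcodes, where Aoah-/- mouse 3 lay above the WT mouse. The 44 higher genes became 105 at a 20% mitochondrial limit (with 13 lower, 48 of all these shared with the 63), 29 with 4 of 5 markers, 21 with 10 CPM added, 16 at a 50 CPM minimum, 272 with no minimum, 71 without the mitochondrial genome, 102 at 1.5-fold and, in a setting chosen after seeing the data, 4 when only genes above all other cells counted. Leaving out Aoah-/- mouse 3 gave 53 and leaving out Aoah-/- mouse 2 gave 73. In these settings the condition on the distance between the Aoah-/- mice could not apply, so the rule was looser. The 19 lower genes became 90 with no minimum, 105 at 1.5-fold and 8 among genes above all other cells. Higher genes were 69.8% of calls, and 89.0% at the 20% mitochondrial limit, 58.0% with 4 of 5 markers, 56.8% with 10 CPM added, 50% at the 50 CPM minimum and 49.3% at 1.5-fold. The Aoah log2 ratio was −0.75 at the 20% mitochondrial limit and −0.69 with 10 CPM added, short of 2-fold. The summed exclusion genes went to 0 with no exclusion UMI, by construction. Depth limits the comparison to genes near 20 CPM or more, and with 1 WT library no setting adds a replicate.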
